A study of Homo sapiens with 18 samples.

Results

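Transcripts of the BCL2 family were followed in SW620 cells, a human colon cancer line, through heat shock and through silencing of Lonp1. The genes were 10 pro- and anti-apoptotic members, taken as the rows of the deposited counts that carry the symbols MCL1, BCL2L1, BCL2, BAX, BAK1, BCL2L11, PMAIP1, BBC3, BID and BIK, out of 26485 gene symbols. All 10 passed the filter on low counts (CPM, the count scaled by library size, above 1 in at least 3 libraries), as did 12832 genes in all. Cells received a scramble siRNA or siRNA against Lonp1 (siLonp1) and were then kept at 37 °C (Ctrl), exposed to 42 °C for 1 h (HS), or exposed to 42 °C for 1 h and returned to 37 °C for 1 h (HS+REC). Each of the 6 groups had 3 libraries, described in the methods as independent biological replicates of this single cell line. The study asked how silencing of Lonp1, a mitochondrial protease also found in the nucleus, and more so after heat shock, changes the transcriptional response to HS. Which of the siRNAs of the methods was used for RNAseq is not given in the sources used here, so an effect of silencing and an effect of the siRNA on other transcripts cannot be told apart.

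The BCL2 family governs permeabilization of the mitochondrial outer membrane, the step that releases cytochrome c and starts caspase activation in the intrinsic pathway of apoptosis. Guardians such as MCL1, BCL-xL (the main product of BCL2L1) and BCL2 hold the pore-forming effectors BAX and BAK in check, and BH3-only proteins either neutralize the guardians or activate the effectors. NOXA, the product of PMAIP1, binds MCL1 selectively, whereas BIM (BCL2L11) and PUMA (BBC3) bind all the main guardians. MCL1 and NOXA are short-lived proteins, and much of the control of the family is exerted on protein, which was not measured here. Gene-level counts also do not separate splice forms of opposite activity, such as those of MCL1 and BCL2L1.

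The libraries held between 30815860 and 47279297 counts (median 40847024.5). LONP1, the silenced gene, averaged 221 ± 5.56 CPM with scramble and 20.4 ± 1.75 CPM with siLonp1 in Ctrl (mean ± SD, n = 3), and its log2 fold change with siLonp1 was -3.43, -4.19 and -3.01 in Ctrl, HS and HS+REC. HSPA1B, an inducible HSP70 gene, averaged 26.3 CPM before and 2739 CPM after HS in scramble, and 27.1 and 3014 CPM in siLonp1. Of 10 markers of colon epithelium, 7 were above 1 CPM in every library, and CDX1 was at 0 in all of them. The defining markers PTPRC and CD3E of immune cells, PECAM1 and CDH5 of endothelium, and COL1A2, COL3A1 and DCN of fibroblasts were below 1 CPM in every library. Of the 5 immune markers, however, CD68 (10.6 to 18.1 CPM) and LYZ (2.64 to 9.63 CPM) were above 1 CPM throughout, and VWF of endothelium lay between 0.508 and 1.27 CPM. The summed level of the 6 fibroblast markers, nearly all COL1A1 and LUM, was 41.3 to 47.1 CPM with scramble and 23.5 to 25.0 CPM with siLonp1 in Ctrl, 42.3 to 46.1 and 26.2 to 30.6 CPM in HS, and 61.6 to 63.0 and 47.1 to 48.7 CPM in HS+REC, and its part in the results was not tested. All libraries are of a single cell line, so these sums are given as transcript levels and not as shares of cell types.

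Per kilobase of annotated exon, the guardians BCL2L1 and MCL1 led the family in every group. In Ctrl scramble, BCL2L1 stood at 98.6 ± 3.58 CPM per kb and MCL1 at 47.3 ± 1.97. Below them came BIK (21.2), BAX (18.3), BAK1 (16.7), BID, PMAIP1 (9.29) and BCL2L11 (3.12), with BBC3 (0.523) and BCL2 (0.143) at the low end. No neighbours in that order had overlapping libraries. In HS scramble the order changed, with MCL1 at 113 ± 5.54 CPM per kb overlapping BCL2L1 at 117 ± 2.58, and PMAIP1 at 18.9 ± 2.10 overlapping BAX. PMAIP1 held the place after the 2 leading guardians in HS siLonp1, HS+REC scramble and HS+REC siLonp1, although it overlapped BIK in HS siLonp1. These levels depend on the exon lengths used, the union of all annotated GENCODE v44 exons of each gene, which is 12612 bases for BCL2 and 951 bases for BIK.

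**Figure D1:**
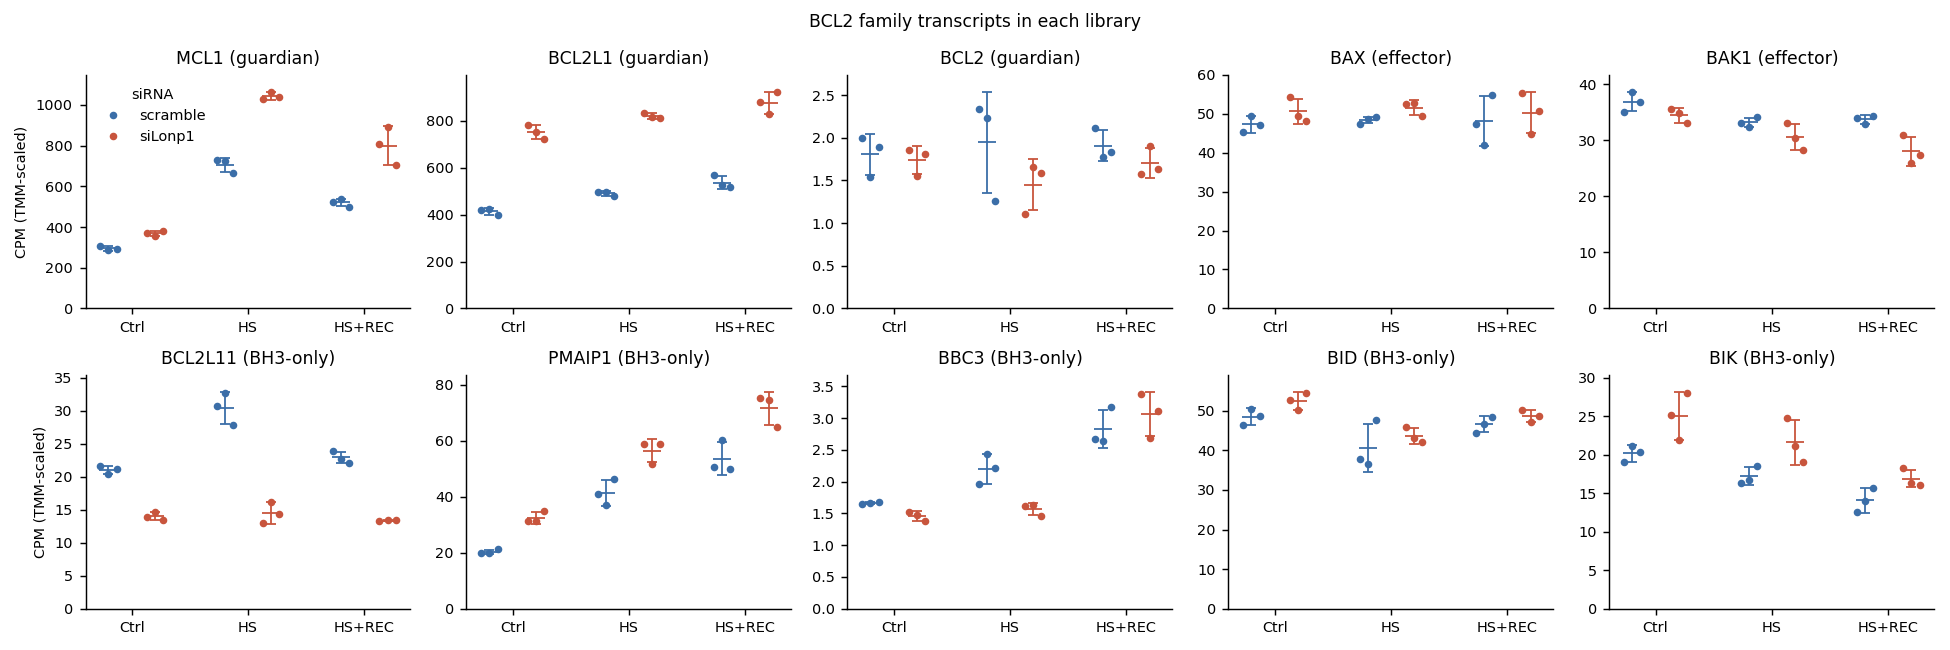
Level of each BCL2 family transcript in CPM (TMM-scaled, linear axis from 0) against condition, with 1 point per library, blue for scramble and red for siLonp1. Horizontal marks and bars give mean and SD of the 3 libraries. MCL1 is highest in HS and PMAIP1 and BBC3 in HS+REC, BCL2L11 rises with HS in scramble but stays between 13.0 and 16.2 CPM in all siLonp1 libraries, and BAX lies between 42.0 and 55.4 CPM throughout.

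HS raised the guardian MCL1 and the BH3-only gene PMAIP1 in both siRNA arms and lowered BID. Differences were tested with edgeR's quasi-likelihood test on the counts and called at a Benjamini-Hochberg false discovery rate (FDR) of at most 0.05 over all genes tested. In scramble, 6 of the 10 members passed, where 36.0% of all genes tested did, with MCL1, PMAIP1, BCL2L11, BBC3 and BCL2L1 higher and BID lower. In siLonp1, 3 members passed (42.2% of all genes), namely MCL1 and PMAIP1, which rose, and BID, which fell. A fold change above 2 as well was reached by 2 members in scramble (3.30% of all genes) and by 1 in siLonp1 (4.57%). PMAIP1 in scramble lay near that limit, with a log2 fold change of 0.97 to 1.10 over 27 alternatives. The median log2 fold change of the members was 0.19 in scramble and 0.04 in siLonp1, against -0.01 and 0.00039 over all genes tested. After recovery, 5 members differed from Ctrl in scramble (42.3% of all genes) and 6 in siLonp1 (51.2%), of which 1 (4.46%) and 3 (5.71%) were also past a fold change of 2. The HS and HS+REC comparisons share the Ctrl libraries of their arm. From HS to HS+REC, 5 members changed in scramble (26.8%) and 4 in siLonp1 (31.9%), and none of them by more than 2-fold (1.90% and 2.57% of all genes), with 0 by DESeq2 as well.

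Silencing of Lonp1 raised BCL2L1, MCL1, PMAIP1 and BIK and lowered BCL2L11 in each of the 3 conditions. In Ctrl these were the 5 members past the FDR limit (49.2% of all genes tested). In HS, 6 members passed (54.8%), BBC3 being lower as well, and in HS+REC, 6 passed (54.1%), BAK1 being lower as well. A fold change above 2 was reached by no member in Ctrl (4.17% of all genes), by BCL2L11 alone in HS (4.17%) and by none in HS+REC (4.18%), with counts of 0, 1 and 0 by DESeq2 too. The median log2 fold change of the members lay at 0.10, 0.10 and 0.09 in the 3 conditions, against 0.0092, 0.0011 and -0.0028 over all genes.

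Whether the response to heat differed between the arms was asked with interaction terms, in which few genes passed at all. The silenced gene LONP1 was among them, with terms of -0.76 for HS (edgeR adjusted p = 0.000468) and 0.43 for HS+REC against Ctrl (adjusted p = 0.0321). Its term for HS+REC against HS was 1.18 (edgeR adjusted p = 1.18e-06). The depth of silencing thus differed between conditions, and its part in the terms of the members was not tested. For HS, 1 member passed (1.87% of all genes tested), BCL2L11, and with a fold change above 2 as well none did (0.140%). For HS+REC against Ctrl, 0 members passed (1.58%, and 0.109% with the fold change limit) by edgeR and by DESeq2. For HS+REC against HS, a comparison that was added after the data had been seen, 0 members passed (1.38%, and 0.171% with the fold change limit) by both tools.

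**Figure D2:**
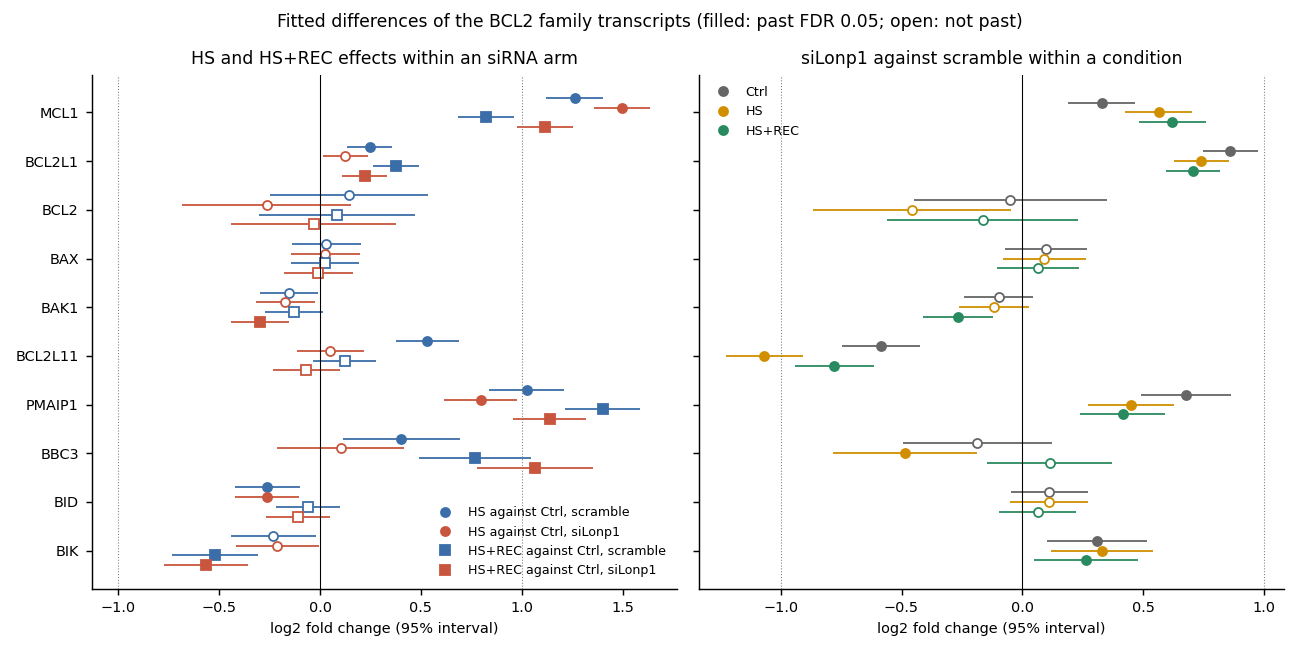
Log2 fold change of each member with its 95% interval (edgeR), for HS and HS+REC against Ctrl within an arm (left) and for siLonp1 against scramble within a condition (right), with dotted lines at a fold change of 2. Filled symbols passed the FDR limit and open symbols did not. MCL1 and PMAIP1 lie to the right in all 7 comparisons shown, and BCL2L11 lies furthest to the left for siLonp1 in HS at -1.07.

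MCL1, a guardian whose short-lived protein is lost early when its supply stops, carried the largest HS response of the family. The gene lies at chr1:150560895-150579738 on the minus strand (hg38, GENCODE v44). Its levels in Ctrl scramble were 308, 285 and 291 CPM, and in HS scramble 728, 724 and 666 CPM. With siLonp1 they were 373, 356 and 381 CPM in Ctrl and 1027, 1064 and 1041 CPM in HS. In both arms every HS library thus lay far above every Ctrl library, and the siLonp1 libraries lay above all scramble libraries of the same condition. The log2 fold change with HS was 1.26 ± 0.07 (SE) in scramble (adjusted p = 5.03e-13) and 1.50 ± 0.07 in siLonp1 (adjusted p = 1.78e-14). In HS+REC the levels were 525, 536 and 501 CPM in scramble and 808, 889.7 and 703 CPM in siLonp1. These libraries sat between Ctrl and HS of their arm without overlapping either. From HS to HS+REC, MCL1 fell by 0.44 ± 0.07 on the log2 scale in scramble (edgeR adjusted p = 1.92e-05) and by 0.38 ± 0.07 in siLonp1 (adjusted p = 7.49e-05).

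The siLonp1 effect on MCL1 was 0.33 ± 0.07 on the log2 scale in Ctrl (edgeR adjusted p = 0.000304), 0.56 ± 0.07 in HS (adjusted p = 2.86e-07) and 0.62 ± 0.07 in HS+REC (adjusted p = 6.49e-08). The interaction term of MCL1 was 0.24 for HS, with a 95% interval from 0.04 to 0.43 (edgeR adjusted p = 0.224), and 0.29 for HS+REC, with an interval from 0.10 to 0.49 (adjusted p = 0.132). These did not pass the limit over all genes. Without HS+REC siLonp1 replicate 3, in which MCL1 was lowest of its group, the term for HS+REC was 0.38 and passed (adjusted p = 0.0159, with a range of 0.0159 to 0.297 over its 27 alternatives). ADAMTSL4, which overlaps MCL1 on the opposite strand, had group means of only 2.28 to 4.50 CPM.

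BCL2L1, which encodes BCL-xL and lies at chr20:31664452-31723989 on the minus strand, showed the largest increase with siLonp1 among the members in Ctrl, HS and HS+REC. In Ctrl its levels were 421, 424 and 397 CPM in scramble and 780.5, 753 and 723 CPM in siLonp1. In HS they were 498, 496 and 478 CPM against 835, 814 and 811 CPM, and in HS+REC 568, 526 and 518 CPM against 880.1, 828 and 922 CPM. The lowest siLonp1 library of any condition was above the highest scramble library of any condition. The log2 fold change with siLonp1 was 0.86 ± 0.05 in Ctrl (edgeR adjusted p = 1.70e-11), 0.74 ± 0.05 in HS (adjusted p = 1.88e-10) and 0.71 ± 0.05 in HS+REC (adjusted p = 3.77e-10). Heat moved BCL2L1 less than MCL1: HS against Ctrl gave 0.25 ± 0.05 in scramble (edgeR adjusted p = 0.00106) and 0.12 ± 0.05 in siLonp1 (adjusted p = 0.0686), and HS+REC against Ctrl gave 0.38 ± 0.05 and 0.22 ± 0.05, both past the limit. The HS difference in siLonp1 lay near the limit and passed in 6 of 27 alternatives, with DESeq2 (adjusted p = 0.0414), with CPM above 1 required in all libraries, with only the groups compared, and without HS scramble replicate 3 or HS+REC siLonp1 replicate 1 or 2 (range of adjusted p from 0.0332 to 0.268).

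BCL2, the founding guardian of the family, was scarcely expressed, at 40 to 104 counts per library and 1.11 to 2.34 CPM. It lies at chr18:63123346-63320128 on the minus strand. BCL2 passed the FDR limit in none of the comparisons. In HS its levels were 2.34, 2.23 and 1.26 CPM in scramble and 1.11, 1.66 and 1.58 CPM in siLonp1. The groups overlapped through the scramble library at 1.26 CPM, and the log2 difference of siLonp1 minus scramble was -0.46 with a 95% interval from -0.87 to -0.05 (edgeR adjusted p = 0.0545). The difference lay near the limit and passed in 6 of 27 alternatives, among them scaling by library size only (-0.55), the likelihood ratio test, 2 other filters on low counts, and the fits without HS siLonp1 replicate 2 (-0.56) or without the library at 1.26 CPM, HS scramble replicate 3 (-0.67, adjusted p = 0.00329). The adjusted p ranged from 0.00329 to 0.254, and without HS siLonp1 replicate 1 the difference was -0.30.

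The effectors BAX and BAK1, whose products form the pore in the outer membrane, moved little. BAX (chr19:48954815-48961798, plus strand) lay between 42.0 and 55.4 CPM over all 18 libraries, with group means from 47.3 to 51.5 CPM, and passed the limit in no comparison. Its log2 fold change with HS was 0.03 in each arm, with 95% intervals from -0.14 to 0.20 in both. BAK1 (chr6:33572547-33580293, minus strand) lay between 25.9 and 38.7 CPM. It fell in 2 comparisons, by 0.30 ± 0.07 on the log2 scale for HS+REC against Ctrl in siLonp1 (edgeR adjusted p = 0.00109) and by 0.27 ± 0.07 for siLonp1 in HS+REC (adjusted p = 0.00265). These share the HS+REC siLonp1 libraries at 30.9, 25.9 and 27.3 CPM, all below the 35.6, 34.9 and 33.1 CPM of Ctrl siLonp1 and the 34.0, 32.9 and 34.4 CPM of HS+REC scramble. With libraries scaled by their totals alone, BAK1 also passed for HS in scramble (-0.18) and siLonp1 (-0.22), for HS+REC against Ctrl in scramble (-0.21), and for siLonp1 in Ctrl (-0.17) and HS (-0.21). With TMM scaling, HS in siLonp1 lay near the limit (-0.17, adjusted p = 0.0526) and passed by the edgeR likelihood ratio test and without Ctrl siLonp1 replicate 3, HS siLonp1 replicate 1, or replicate 1 or 2 of HS+REC siLonp1. HS+REC against HS in siLonp1 (-0.13) passed without HS+REC siLonp1 replicate 1 (-0.21).

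PMAIP1, the gene of the MCL1-binding protein NOXA at chr18:59899996-59904305 on the plus strand, rose at every step. In scramble its levels were 19.8, 19.8 and 21.3 CPM in Ctrl, 40.8, 37.1 and 46.2 CPM in HS, and 50.6, 60.4 and 49.8 CPM in HS+REC. In siLonp1 they were 31.3, 31.2 and 34.9 CPM in Ctrl, 59.0, 51.7 and 58.6 CPM in HS, and 75.1, 74.6 and 64.8 CPM in HS+REC. The groups of an arm did not overlap, and neither did the arms within a condition. HS raised PMAIP1 by 1.03 ± 0.09 on the log2 scale in scramble (edgeR adjusted p = 3.25e-09) and by 0.80 ± 0.09 in siLonp1 (adjusted p = 8.10e-08). Where MCL1 had fallen back, PMAIP1 rose further from HS to HS+REC, by 0.38 ± 0.09 in scramble (adjusted p = 0.00184) and 0.34 ± 0.09 in siLonp1 (adjusted p = 0.00299), which brought it to 1.40 and 1.14 above Ctrl. The siLonp1 effect was 0.68 ± 0.09, 0.45 ± 0.09 and 0.42 ± 0.08 in Ctrl, HS and HS+REC, all past the limit, and the interaction terms were -0.23 for HS (edgeR adjusted p = 0.400) and -0.26 for HS+REC (adjusted p = 0.352).

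BCL2L11, which encodes BIM and lies at chr2:111119378-111168444 on the plus strand, was the member whose HS response differed between the arms. In scramble its levels were 21.6, 20.4 and 21.2 CPM in Ctrl, 30.6, 32.6 and 27.8 CPM in HS, and 23.9, 22.7 and 22.1 CPM in HS+REC. In siLonp1 they were 13.9, 14.6 and 13.5 CPM in Ctrl, 13.0, 16.2 and 14.4 CPM in HS, and 13.3, 13.4 and 13.4 CPM in HS+REC. Every scramble library lay above every siLonp1 library, the HS scramble libraries stood above the rest, and the HS siLonp1 libraries overlapped both other siLonp1 groups, of which HS+REC lay just below Ctrl. HS raised BCL2L11 by 0.53 ± 0.08 on the log2 scale in scramble (edgeR adjusted p = 5.32e-06), and it fell by 0.41 ± 0.07 from HS to HS+REC (adjusted p = 0.000183). In siLonp1 the HS difference was 0.05, with a 95% interval from -0.12 to 0.22. The interaction term was -0.48 ± 0.11 with an interval from -0.71 to -0.25 (edgeR adjusted p = 0.0227).

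That interaction call rested on a narrow margin. The adjusted p was above 0.05 in 8 of the 18 fits that left out 1 library, namely without Ctrl scramble replicate 2 or 3, Ctrl siLonp1 replicate 1 or 2, replicate 1 or 2 of HS scramble, or replicate 1 or 3 of HS siLonp1, although the term kept a value between -0.41 and -0.57 over all 27 alternatives (adjusted p from 0.00325 to 0.0819). The siLonp1 effect within each condition was firmer, and BCL2L11 fell by 0.59 ± 0.08 on the log2 scale in Ctrl (edgeR adjusted p = 1.89e-06), by 1.07 ± 0.08 in HS (adjusted p = 1.38e-10) and by 0.78 ± 0.08 in HS+REC (adjusted p = 2.30e-08), past the limit under each alternative run. MIR4435-2HG, a long non-coding gene annotated across BCL2L11 on the opposite strand, had group means of 14.0, 12.0 and 12.9 CPM in Ctrl, HS and HS+REC of scramble and of 19.8, 16.4 and 20.4 CPM in siLonp1. The strand setting of the counting is not given in the sources used here, and the part of such reads in the BCL2L11 counts was not tested.

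BBC3, the gene of PUMA at chr19:47220822-47232766 on the minus strand, was a low-count gene, at 54 to 149 counts per library, that was highest in recovery. In scramble its levels were 1.65, 1.66 and 1.68 CPM in Ctrl, 1.96, 2.43 and 2.21 CPM in HS, and 2.67, 2.64 and 3.17 CPM in HS+REC. In siLonp1 they were 1.53, 1.48 and 1.38 CPM in Ctrl, 1.62, 1.63 and 1.46 CPM in HS, and 3.38, 2.69 and 3.12 CPM in HS+REC. The HS+REC libraries lay above all Ctrl and HS libraries in both arms. HS+REC against Ctrl gave 0.77 ± 0.13 on the log2 scale in scramble (edgeR adjusted p = 5.90e-05) and 1.07 ± 0.14 in siLonp1 (adjusted p = 7.88e-07). The HS difference was 0.40 ± 0.14 in scramble (adjusted p = 0.0279) and 0.10 ± 0.15 in siLonp1 (adjusted p = 0.629), and in HS the log2 difference of siLonp1 minus scramble was -0.49 ± 0.14 (adjusted p = 0.00645).

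From HS to HS+REC the BBC3 difference was 0.37 ± 0.13 in scramble (edgeR adjusted p = 0.0398) and 0.97 ± 0.14 in siLonp1 (adjusted p = 6.33e-06). The difference between these, 0.60 with a 95% interval from 0.21 to 0.99, did not pass over all genes (edgeR adjusted p = 0.140). Both scramble calls of BBC3 that involve HS depended on single libraries. The HS call was lost without any one of the 3 Ctrl scramble libraries or HS scramble replicate 2, with values of 0.32 to 0.41 in those fits, and that from HS to HS+REC without HS scramble replicate 1 or 3 or HS+REC scramble replicate 3, with values of 0.27 to 0.35. Both were lost with DESeq2, at an adjusted p of 0.0632 (range of 0.0165 to 0.147 over 27 alternatives) and 0.0954 (range of 0.0320 to 0.193).

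BID, which is cleaved by caspase-8 and links death receptors to mitochondria, lies at chr22:17734138-17774770 on the minus strand. It was lower in HS than in Ctrl in both arms, by a log2 difference of -0.26 ± 0.08 in scramble (edgeR adjusted p = 0.0107) and -0.26 ± 0.08 in siLonp1 (adjusted p = 0.00832). In scramble its levels were 46.3, 50.5 and 48.6 CPM in Ctrl and 37.7, 36.4 and 47.6 CPM in HS. HS scramble replicate 3 thus lay among the Ctrl libraries, and the call was lost without Ctrl scramble replicate 2 (-0.23) or HS scramble replicate 1 (-0.21) or 2 (-0.19), whereas the difference was -0.36 without replicate 3. In siLonp1 the levels of 46.0, 43.1 and 42.0 CPM in HS lay below the 52.6, 50.1 and 54.6 CPM of Ctrl. HS+REC levels of 44.4 to 48.5 CPM in scramble and 47.0 to 50.1 CPM in siLonp1 did not differ from Ctrl past the limit.

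BIK, a BH3-only gene whose product resides largely at the endoplasmic reticulum, lies at chr22:43110750-43129712 on the plus strand and fell in recovery. Its levels in scramble were 19.0, 21.2 and 20.4 CPM in Ctrl, 16.4, 16.8 and 18.6 CPM in HS, and 12.5, 14.0 and 15.7 CPM in HS+REC. In siLonp1 they were 25.1, 21.9 and 28.1 CPM in Ctrl, 24.7, 21.1 and 19.0 CPM in HS, and 18.2, 16.4 and 16.1 CPM in HS+REC. Within each arm, every HS+REC library was below every Ctrl and HS library, and BIK fell against Ctrl by 0.52 ± 0.10 on the log2 scale in scramble (edgeR adjusted p = 0.000226) and by 0.57 ± 0.10 in siLonp1 (adjusted p = 5.65e-05). The siLonp1 effect, 0.31 ± 0.10 in Ctrl (adjusted p = 0.0134), 0.33 ± 0.10 in HS (adjusted p = 0.0091) and 0.26 ± 0.10 in HS+REC (adjusted p = 0.0357), was less secure. It was lost in all 3 conditions when libraries were scaled by their totals alone, with values of 0.23, 0.23 and 0.19. It was also lost without Ctrl scramble replicate 1 (0.27) or Ctrl siLonp1 replicate 3 (0.22) in Ctrl, without HS siLonp1 replicate 1 (0.22) in HS, and without HS+REC scramble replicate 1 (0.19) or 2 (0.26) or HS+REC siLonp1 replicate 1 (0.20) in HS+REC. From HS to HS+REC the log2 difference was -0.29 in scramble and -0.35 in siLonp1, calls that were lost in 7 of the 18 fits without 1 library and without HS siLonp1 replicate 1, respectively.

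Windows before the transcription start are shown for the 3 members with the largest siLonp1 effects in Ctrl, BCL2L1 and PMAIP1, which rose, and BCL2L11, which fell. They are the 250 bases before a RefSeq start (GRCh38.p14), at chr20:31723964-31724213 on the minus strand, chr18:59899746-59899995 on the plus strand and chr2:111120664-111120913 on the plus strand, written 5′ to 3′. Capitals mark the letters TGACG, or CGTCA where they lie on the other strand, the half-site of the CRE bound by ATF and CREB factors.
BCL2L1: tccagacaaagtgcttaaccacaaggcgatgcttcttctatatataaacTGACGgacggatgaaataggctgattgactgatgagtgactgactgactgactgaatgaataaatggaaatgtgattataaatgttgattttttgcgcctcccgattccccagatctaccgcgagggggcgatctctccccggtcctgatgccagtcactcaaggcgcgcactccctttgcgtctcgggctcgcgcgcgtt
PMAIP1: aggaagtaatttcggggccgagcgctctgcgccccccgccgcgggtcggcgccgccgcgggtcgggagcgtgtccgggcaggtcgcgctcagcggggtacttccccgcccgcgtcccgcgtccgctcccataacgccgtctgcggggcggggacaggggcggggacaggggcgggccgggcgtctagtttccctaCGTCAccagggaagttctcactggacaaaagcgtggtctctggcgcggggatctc
BCL2L11: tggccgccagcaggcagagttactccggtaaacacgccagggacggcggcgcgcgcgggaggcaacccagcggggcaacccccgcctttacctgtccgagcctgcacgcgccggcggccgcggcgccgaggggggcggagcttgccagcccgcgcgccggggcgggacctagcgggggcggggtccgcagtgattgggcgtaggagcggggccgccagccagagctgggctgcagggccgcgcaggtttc
RefSeq windows of 300 bases, 250 before and 50 after the start, were matched for 8 of the 10 members (not for MCL1 and BIK) and searched on both strands for the heat shock element letters GAANNTTC or TTCNNGAA, for the CRE TGACGTCA, for the AP-1 site TGANTCA and for the C/EBP-ATF site TGATGCAA. The CRE half-site TGACG, which every full CRE also holds, was added after the windows had been read. Counted from the start, it stood at position -55 of PMAIP1, -201 of BCL2L1, -134 of BAX and -225 of BCL2, but not in the window of a second RefSeq start of BCL2L1 (chr20:31722869-31723118), and 24.6% of all 35116 promoter windows hold it. An element of heat shock factor letters stood at -226 of BAK1 and -97 of a BID window (either form in 13.5% of all windows), and the AP-1 letters at -113 of BBC3 (7.71%). None of these letters was in the BCL2L11 window. The full CRE (1.85% of all windows) and the C/EBP-ATF letters (0.866%) were in no window of the 8 members.

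Within a library, the balance of counts between BH3-only genes and guardians can be given without any scaling between libraries. For each 100 MCL1 counts there were 6.90 ± 0.45 PMAIP1 counts in Ctrl scramble, 5.89 ± 0.94 in HS scramble and 10.3 ± 0.87 in HS+REC scramble (mean ± SD, n = 3), and 8.78 ± 0.38, 5.41 ± 0.48 and 8.96 ± 0.51 in siLonp1. In both arms the HS+REC libraries were all above the HS libraries. BCL2L11 counts per 100 MCL1 counts were 7.15 ± 0.15, 4.30 ± 0.18 and 4.40 ± 0.15 in Ctrl, HS and HS+REC of scramble, and 3.79 ± 0.30, 1.39 ± 0.13 and 1.68 ± 0.20 in siLonp1. Against BCL2L1 the BCL2L11 counts per 100 were 5.09 ± 0.26, 6.18 ± 0.38 and 4.27 ± 0.06 in scramble and 1.86 ± 0.08, 1.77 ± 0.22 and 1.53 ± 0.09 in siLonp1, and the lowest scramble library was above the highest siLonp1 library by a wide gap. BCL2L1 itself was counted 141 ± 7.10 times per 100 MCL1 counts in Ctrl scramble and 204 ± 12.0 times in Ctrl siLonp1, and 69.6 ± 1.92 and 78.6 ± 2.46 times in HS. In HS+REC these values were 103 ± 4.96 and 111 ± 19.1, and the arms overlapped. These ratios follow from the levels above and were not tested.

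**Figure D3:**
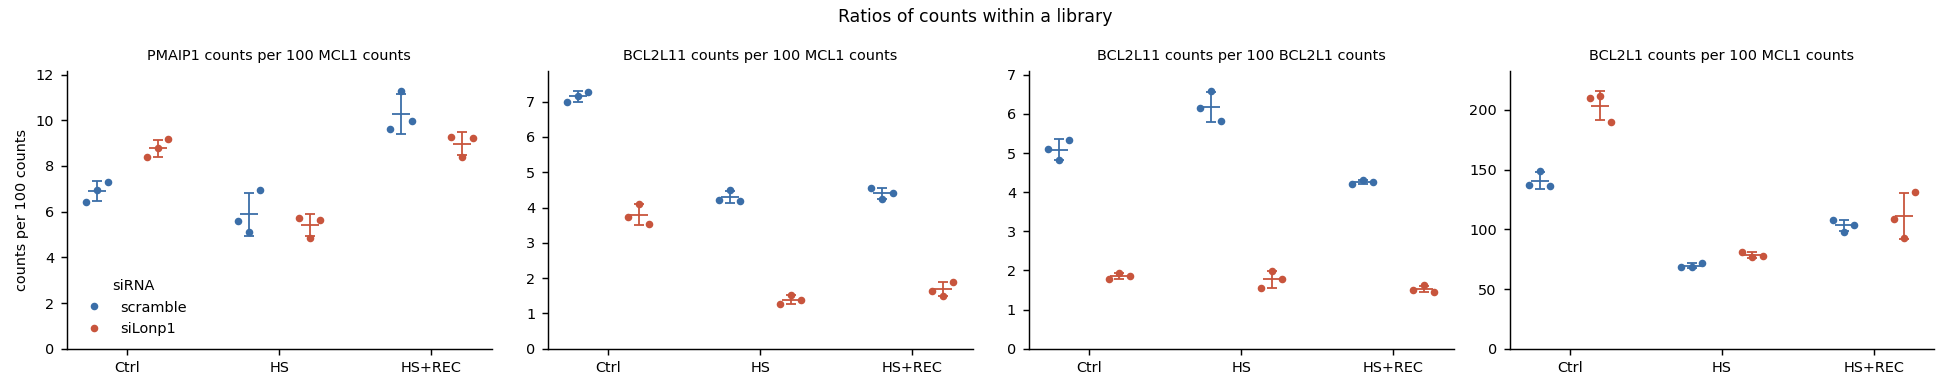
Counts of one member per 100 counts of another within the same library (linear axes from 0), with 1 point per library, blue for scramble and red for siLonp1, and mean and SD of 3 libraries. The mean of PMAIP1 per 100 MCL1 counts is lowest in HS in both arms, and BCL2L11 per 100 BCL2L1 counts stays below 2 in every siLonp1 library and above 4 in every scramble library.

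The transcripts most like 4 of the members over the 18 libraries were found by Pearson's r of log2 CPM, a description in which all points share library and treatment. MCL1 was followed most closely by C16orf72 (r = 0.99), WDR47 (r = 0.98) and PELI1 (r = 0.98). PMAIP1 was most like CDC42EP3, SAT1 and HMOX1 (r = 0.98 each), the last encoding the heme oxygenase induced by oxidative stress. BBC3 was most like KLF4 (r = 0.95), DFNB31 (r = 0.94) and PROSER2 (r = 0.94), and BCL2L11 like LOC646762 (r = 0.97), PLCB3 (r = 0.96) and PPAP2B (r = 0.96). Among the members, MCL1 and PMAIP1 had r = 0.84 and BCL2L1 and BCL2L11 had r = -0.83.

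Of 11 further BCL2 family genes, 7 were tested. The counts of this list and of the 3 that follow are to be read against the share of all genes tested that passed, which was 36.0% for HS in scramble, 42.2% for HS in siLonp1, and 49.2%, 54.8% and 54.1% for siLonp1 in Ctrl, HS and HS+REC. With siLonp1, 2 were higher and 4 lower in Ctrl, 2 and 4 in HS, and 1 and 2 in HS+REC, and the median log2 differences were -0.34, -0.21 and 0.07. With HS, 1 was higher in each arm and 1 lower in siLonp1, with medians of -0.0046 in scramble and 0.10 in siLonp1. The medians over all genes tested are those given above for the same comparisons. The BH3-only gene BMF had group means of 0.991, 1.21 and 0.892 CPM in Ctrl, HS and HS+REC of scramble and of 0.607, 0.753 and 0.676 CPM in siLonp1. Only the HS scramble mean was above the 1 CPM of the filter, so its entry among the genes tested may have depended on the scramble libraries. It is counted above among the genes lower in Ctrl and HS, and no weight is put on that call. BCL2L12 was lower with siLonp1 in all 3 conditions (-0.40, -0.37 and -0.48). BOK, an effector-like member, was higher in Ctrl (0.58) and HS (0.34). BCL2L15 was lower with siLonp1 in Ctrl (-0.65) and HS (-0.53), and in HS+REC the log2 difference was 0.09 (edgeR adjusted p = 0.363), at 29.6 CPM in scramble and 31.5 CPM in siLonp1. Against the Ctrl libraries of each arm it rose in HS+REC by 0.72 in scramble and 1.46 in siLonp1, and this difference between the arms passed (interaction 0.74 ± 0.12, edgeR adjusted p = 0.00261).

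All 15 genes listed for the apoptosome, caspases and their inhibitors were tested. None passed the FDR limit with a change of more than 2-fold in any comparison, where 0.109% to 5.71% of all genes did. HS raised 1 and lowered 2 in scramble and raised 1 and lowered 3 in siLonp1, and siLonp1 raised 2 and lowered 6 in Ctrl, 3 and 5 in HS, and 3 and 8 in HS+REC. Of the 15 genes, 3 and 4 were thus called for HS, beside 36.0% and 42.2% of all genes, and 8, 8 and 11 for siLonp1, beside 49.2%, 54.8% and 54.1%, with no test of these shares. The list medians were -0.09 and -0.03 for HS in scramble and siLonp1, and -0.12, -0.13 and -0.17 for siLonp1 in the 3 conditions. With siLonp1, the executioner CASP6 fell by 0.49, 0.56 and 0.64 in Ctrl, HS and HS+REC, and BIRC3 by 0.61, 0.55 and 0.78, whereas BIRC2, which like BIRC3 encodes a ubiquitin ligase of the TNF receptor complex, rose by 0.34, 0.49 and 0.39. BIRC5, the gene of survivin, fell in HS+REC by 0.27 in scramble and 0.44 in siLonp1.

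In the death receptor list, 11 of 13 genes were tested, and the largest change was that of CASP8, the initiator caspase that cleaves BID. With siLonp1 it fell by 0.90 ± 0.08, 1.26 ± 0.08 and 1.44 ± 0.08 on the log2 scale in Ctrl, HS and HS+REC, from group means of 18.5, 16.8 and 17.3 CPM in scramble to 9.86, 6.99 and 6.36 CPM. The death receptor FAS, at 1.02 to 2.07 CPM, fell by 0.99, 0.79 and 0.73. TNFRSF10D, a decoy receptor for TRAIL, rose with HS by 0.69 in scramble and 1.03 in siLonp1 and with siLonp1 by 0.38, 0.72 and 0.66 in Ctrl, HS and HS+REC. The adaptor FADD fell with HS by 0.31 and 0.76 (interaction -0.45, edgeR adjusted p = 0.0379), TNFRSF1A fell by 0.35 and 0.77, and the kinase RIPK1 fell in HS+REC by 0.78 and 1.01. In all, HS raised 2 and lowered 3 of these genes in scramble and raised 1 and lowered 5 in siLonp1, and siLonp1 raised 3 and lowered 2 in Ctrl, 2 and 5 in HS, and 2 and 3 in HS+REC, against the 36.0% and 42.2% of all genes called for HS and the 49.2%, 54.8% and 54.1% called for siLonp1. The list medians were -0.08 and -0.26 for HS and 0.10, -0.24 and -0.0090 for siLonp1.

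Among 17 regulators of MCL1 stability and of BH3-only transcription, 16 were tested, and HS raised 9 and lowered 1 in scramble and raised 9 and lowered 4 in siLonp1, where 36.0% and 42.2% of all genes were called. ATF3 and DDIT3, stress-induced transcription factors, rose most, by 1.93 and 1.02 in scramble and by 2.57 and 1.45 in siLonp1. JUN, a subunit of AP-1, rose with HS by 0.92 and 0.57 and with siLonp1 by 0.92, 0.57 and 0.73 in Ctrl, HS and HS+REC. FOXO3, a factor known for activating BCL2L11, whose part in the BCL2L11 values was not tested, rose with HS by 0.83 ± 0.10 in scramble and 0.29 ± 0.09 in siLonp1 (interaction -0.55, edgeR adjusted p = 0.0334), and rose with siLonp1 by 1.05, 0.51 and 1.14. TRIB3 rose in HS+REC by 1.00 in scramble and 1.50 in siLonp1 (interaction 0.50, edgeR adjusted p = 0.00872), and TP73 was higher with siLonp1 by 1.12, 0.62 and 0.60 in Ctrl, HS and HS+REC. Over this list siLonp1 raised 7 and lowered 4 in Ctrl, 9 and 2 in HS, and 9 and 4 in HS+REC, where 49.2%, 54.8% and 54.1% of all genes were called. The list medians were 0.22 and 0.29 for HS and 0.11, 0.21 and 0.24 for siLonp1.

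**Figure D4:**
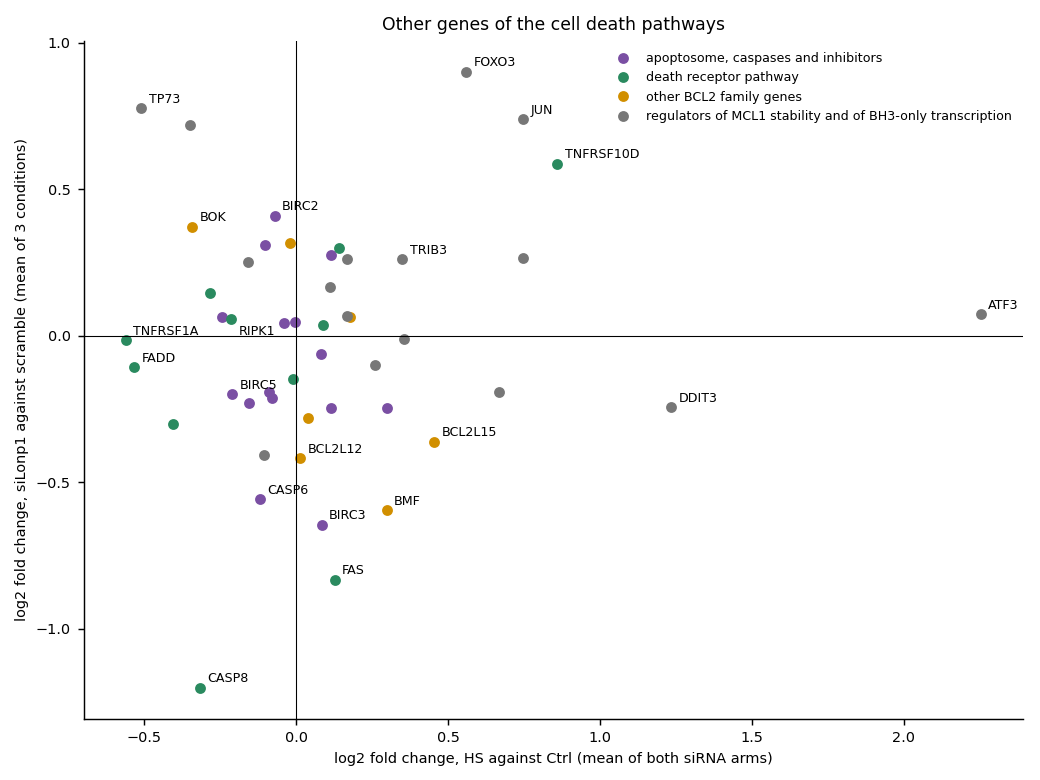
Each point is a tested gene of the 4 cell death lists, placed by its log2 fold change with HS averaged over both siRNA arms (horizontal) and with siLonp1 averaged over 3 conditions (vertical), coloured by list, with the list genes named in the text labelled. ATF3 and DDIT3 lie furthest to the right, FOXO3 highest, and CASP8 and FAS lowest.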

How the data were processed

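RNAseq was performed on 18 SW620 libraries (stranded mRNA, paired ends). Per the labels and the methods, the authors aligned reads to hg38 with STAR 2.7.3a, counted them on UCSC genes with featureCounts and worked in R 3.6.3 with edgeR. The deposited values are raw counts per gene symbol, with no normalization. The strand setting, the handling of reads shared by several genes and the annotation release are not given in the sources used here. Each count column was mapped to its group by its name.

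Counts were analysed in R 4.3.3 with edgeR 4.0.16: CPM above 1 in at least 3 libraries, TMM factors, and 1 quasi-likelihood model with a mean for each of the 6 groups, so that all groups share the estimate of the spread (common biological coefficient of variation 0.0658). Prior counts were 0.125 for fold changes and 2 for log2 CPM. Intervals are 95% intervals of the fit. P-values measure the spread between these replicates. Within groups, libraries differed beyond counting error (chi-square per degree of freedom of 3.62 to 27.5). The procedure was tested on simulated counts with known changes.

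The 10 members and the 4 gene lists were chosen with earlier results of these data known. Named beside the members are LONP1, HSPA1B, list genes past the FDR limit with a fold change above 2 in any planned comparison or among the 3 largest average changes of their list, and the 3 genes most like each of 4 members. Some genes that this rule names are not reported here. MARCHF5 was matched by its older symbol. Gene positions come from GENCODE v44 and promoter windows from RefSeq. Tried as alternatives were size factors by RLE or library size alone, other filters, DESeq2 1.42.0, the likelihood ratio test, the replicate number as a block, only the groups compared, FDR 0.01, a fold change limit, and each library left out in turn.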

Additional observations from a re-analysis of the deposited data

Results flagged for a closer look

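BCL2L11 was flagged because its HS effect differed between the siRNA arms by a test of the difference itself. The HS effect was 0.53 on the log2 scale in scramble and 0.05 in siLonp1, and the interaction term was -0.48 (edgeR adjusted p = 0.0227). The call was lost in 8 of 18 fits without 1 library and at FDR 0.01, with an adjusted p of 0.00325 to 0.0819 over 27 alternatives. The 8 fits left out Ctrl scramble replicate 2 or 3, Ctrl siLonp1 replicate 1 or 2, replicate 1 or 2 of HS scramble, or replicate 1 or 3 of HS siLonp1. HS scramble libraries were at 30.6, 32.6 and 27.8 CPM and HS siLonp1 libraries at 13.0, 16.2 and 14.4 CPM.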

How the results depend on the processing

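Of 47 member effects past the FDR limit of 0.05, 38 stayed past it under every alternative, none reversed, and the others concerned BBC3, BID, BIK and the BCL2L11 interaction. With a fold change above 2 required as well, the counts of members were 2 and 1 for HS, 1 and 3 for HS+REC against Ctrl and 0 and 0 for HS+REC against HS (scramble and siLonp1), 0, 1 and 0 for siLonp1 in Ctrl, HS and HS+REC, and 0 for the interaction with HS. Some of these values fell short of a log2 fold change of 1 under an alternative. They reached 0.97 for PMAIP1 with HS in scramble and -0.99 for BCL2L11 with siLonp1 in HS. BBC3 reached 0.99 for HS+REC against Ctrl in siLonp1. With library size only, 5 members instead of 3 passed for HS in siLonp1, as BAK1 and BIK were added. The same scaling gave 8 members instead of 6 for HS in scramble (BAK1 and BIK added), 6 instead of 5 and 7 instead of 6 for HS+REC against Ctrl in scramble (BAK1) and siLonp1 (BID), 7 instead of 6 for siLonp1 in HS (BAK1 and BCL2 added, BIK lost), 5 as before for siLonp1 in Ctrl (BAK1 added, BIK lost), and fewer for HS+REC against HS in scramble (4 instead of 5, BBC3 lost) and for siLonp1 in HS+REC (5 instead of 6, BIK lost). That scaling moved the median of all genes by at most -0.10, for siLonp1 in HS. At FDR 0.01, 3 members instead of 5 passed for HS+REC against HS in scramble, and 0 instead of 1 for the interaction with HS. That limit also ended the calls of BBC3 and BID for HS in scramble, and those of BIK for siLonp1 in Ctrl and in HS+REC. With 1 library left out at a time, the counts ranged from 3 to 5 for HS in siLonp1 (5 without HS siLonp1 replicate 1 or HS+REC siLonp1 replicate 1 or 2), from 3 to 5 for HS+REC against HS in scramble (3 without HS scramble replicate 1), from 4 to 6 for HS in scramble, from 3 to 5 for HS+REC against HS in siLonp1, from 4 to 5, 5 to 8 and 5 to 6 for siLonp1 in Ctrl, HS and HS+REC, from 0 to 1 for the interaction with HS and from 0 to 1 for that with HS+REC (1 without HS+REC siLonp1 replicate 3), and stayed at 5 and 6 for HS+REC against Ctrl. DESeq2 called 5 members instead of 6 for HS in scramble, 4 instead of 3 for HS in siLonp1 and 4 instead of 5 for HS+REC against HS in scramble. Apart from the fold change limit, the share of all genes called under these alternatives is not given here, nor is that under the replicate block below. The member counts under them therefore cannot be set against the background. The causes were not tested.

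Replicate numbers showed no pairing of the libraries. A correlation of deviations over 0.1 was found in 10 of 45 same-numbered pairs (median -0.02) and in 25 of 90 different-numbered pairs (median 0.02). A library correlated best with its own number in 28 of 90 comparisons with another group, each of which offered 3 libraries. With the replicate number as a block, 6, 3, 5, 6, 4 and 4 members passed for HS, HS+REC against Ctrl and HS+REC against HS (scramble, then siLonp1, each), 5, 6 and 6 for siLonp1, and 1 and 0 for the interactions with HS and HS+REC, with BBC3 lost from HS+REC against HS in scramble (adjusted p = 0.0542, range of 0.0320 to 0.193 over 27 alternatives). BCL2 and BBC3, at 40 to 149 counts per library, are the members whose precision is limited by depth.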
